A study of Mus musculus with 20 samples.

Results

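The genes described here encode the protein subunits of the mitochondrial ribosome, taken as every protein-coding gene whose name begins with Mrpl or Mrps and a digit, without pseudogene names. The rule gave 78 genes, 49 named Mrpl and 29 named Mrps, of the 55421 genes counted, of which 21926 are protein coding. All 78 passed the filter on low counts in every comparison. The samples were whole aortas of C57BL/6 mice, frozen and sequenced as 1 library per sample. The groups were Pparafl/fl at 2 months, Pparadelta_SMC at 2 months, Pparafl/fl at 28 months and Pparadelta_SMC at 28 months, with 5 libraries in each; p-values measure the spread between these libraries. Pparafl/fl names a floxed Ppara gene, which serves as the control. Pparadelta_SMC is the smooth-muscle knockout of Ppara, the nuclear receptor that drives genes of fatty acid oxidation. The Cre line, its promoter and the deleted exons are not given in the sources used here, and one line of the extraction protocol speaks of islets, whereas the label of every sample is aorta.

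Mitochondrial ribosomes translate the few mRNAs of the mitochondrial genome, all of which encode subunits of the respiratory chain or of ATP synthase. Their proteins are encoded in the nucleus, made in the cytosol and imported, while their ribosomal RNAs come from mitochondrial DNA. Some of the proteins descend from the ribosome of the bacterial ancestor and others were added in mitochondria. The genes are expressed in all tissues and at higher levels in those rich in mitochondria, such as muscle and brown fat.

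Levels are given as CPM (counts per 1000000 counts), from the deposited counts scaled by TMM over all 20 libraries. The libraries held between 50046288 and 79385413 counts, and each detected 77 or 78 of the 78 genes with at least 10 counts. Ppara itself was at 88.9, 148, 191, 156 and 92.2 CPM in the 5 Pparafl/fl libraries at 2 months and at 109, 69.6, 115, 138 and 101 CPM in the 5 knockout-labelled libraries. At 28 months it was at 89.3, 70.5, 25.8, 83 and 65.7 CPM in Pparafl/fl and at 57.5, 90.8, 71.9, 47.7 and 91 CPM in the knockout-labelled group. The groups overlapped at both ages, and the log2 difference of knockout-labelled minus Pparafl/fl was -0.33 (SE 0.25, adjusted p = 0.664, edgeR) at 2 months and 0.11 (SE 0.31, adjusted p = 1) at 28 months. The gene's total count therefore did not separate the genotypes, and the Pparadelta_SMC libraries are called knockout-labelled here. Smooth muscle markers summed to 2960 to 7300 CPM in young Pparafl/fl (median 5130) and 802 to 8930 CPM in young knockout-labelled libraries (median 1320). In the aged groups they summed to 151 to 573 and 227 to 589 CPM. Airway epithelium markers summed to 1.34 to 2.38 CPM in young and 10 to 3840 CPM in aged Pparafl/fl. In the knockout-labelled groups they summed to 0.919 to 116 and 3.07 to 5500 CPM. T and B cell markers summed to 324 to 731 and 1280 to 9310 CPM in Pparafl/fl. In the knockout-labelled groups these were at 7.15 to 395 and 96.3 to 9730 CPM. In Pparafl/fl, 3 of these 6 markers had a negative age difference (median log2 -0.02), and in the knockout-labelled group 0 had (median 1.23). Skeletal muscle markers, of a tissue rich in mitochondria, had a median sum of 40.9 CPM (11.3 to 2680 CPM) in young and 6100 CPM (2550 to 16100 CPM) in aged Pparafl/fl, and of 538 CPM (8.95 to 4210 CPM) and 1320 CPM (367 to 3760 CPM) in the knockout-labelled groups. Fibroblast markers had medians of 2300 and 665 CPM in Pparafl/fl and of 1180 and 591 CPM in the knockout-labelled groups. In bulk tissue, fewer cells of a type and less RNA per cell cannot be told apart, and the part of these shifts in the results below was not tested.

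The promoters of these genes shared sequence features. RefSeq (GRCm38.p6) gave a promoter, from 250 bases before to 50 bases after the start, for 69 of the 78 genes. Of these, 34.8% held the letters CCGGAAG, a motif of ETS factors such as GABPA, on either strand, against 12.3% of 16610 promoters of protein-coding genes. The letters AAGATGGC, a motif of YY1, were in 17.4% against 3.25%, and GCATGCGC, a motif of NRF1, was in 11.6% against 3.78%. GGGCGG, a motif of Sp1, was about as frequent in these promoters, at 49.3%, as in all, at 48.2%. At least 1 of the ETS, YY1 and NRF1 motifs was in 36 of the 69 promoters, or 52.2%, against 17.8% of all. The median GC content was 58.3% against 57%. NRF1 and GABPA are known as activators of nuclear genes for mitochondrial proteins. These matches describe letters in a window and do not show binding.

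The promoters of the genes with the smallest p in each of the age comparisons below, Mrpl51 and Mrpl21, are printed with those of Mrps12, which holds both an ETS and a YY1 motif, and Mrpl32, which holds the most NRF1 matches. Capitals mark the ETS, YY1 and NRF1 motifs, and each is written 5′ to 3′ on the strand of its gene.
Mrpl51 (chr6:125191950-125192249, plus strand): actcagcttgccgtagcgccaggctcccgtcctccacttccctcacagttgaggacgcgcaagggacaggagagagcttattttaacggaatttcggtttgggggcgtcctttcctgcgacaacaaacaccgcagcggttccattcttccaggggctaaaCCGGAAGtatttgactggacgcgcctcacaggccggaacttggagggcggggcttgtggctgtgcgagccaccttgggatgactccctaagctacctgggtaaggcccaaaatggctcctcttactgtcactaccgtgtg
Mrpl21 (chr19:3282792-3283091, plus strand): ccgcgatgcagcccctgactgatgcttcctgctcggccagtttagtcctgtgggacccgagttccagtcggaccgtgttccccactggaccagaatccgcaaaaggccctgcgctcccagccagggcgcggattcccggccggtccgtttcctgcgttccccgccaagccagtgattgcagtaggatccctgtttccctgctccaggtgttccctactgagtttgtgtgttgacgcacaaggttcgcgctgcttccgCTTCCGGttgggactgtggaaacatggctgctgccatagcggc
Mrps12 (chr7:28741772-28742071, minus strand): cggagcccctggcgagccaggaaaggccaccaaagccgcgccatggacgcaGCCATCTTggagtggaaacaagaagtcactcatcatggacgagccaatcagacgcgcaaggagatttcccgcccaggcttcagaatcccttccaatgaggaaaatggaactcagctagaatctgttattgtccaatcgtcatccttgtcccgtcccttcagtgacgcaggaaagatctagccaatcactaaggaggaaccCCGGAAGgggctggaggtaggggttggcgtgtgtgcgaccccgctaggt
Mrpl32 (chr13:14612988-14613287, minus strand): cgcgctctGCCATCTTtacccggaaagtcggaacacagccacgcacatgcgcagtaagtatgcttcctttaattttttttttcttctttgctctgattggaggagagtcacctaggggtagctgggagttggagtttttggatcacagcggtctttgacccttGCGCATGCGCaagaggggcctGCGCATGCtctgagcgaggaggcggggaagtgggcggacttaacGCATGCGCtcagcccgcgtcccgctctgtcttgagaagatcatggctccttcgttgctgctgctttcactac
The ETS motif of Mrpl51 begins 90 bases before the start, that of Mrpl21 begins 7 bases after it and that of Mrps12 begins 1 base after it. In Mrpl32, NRF1 motifs begin 87, 85, 66 and 22 bases before the start, the first pair being the overlapping matches of 1 run on opposite strands. Of the 10 genes that fell with age in the knockout-labelled group (below), 8 had a promoter in RefSeq, and 1 of these, Mrpl51, held any of the ETS, YY1 and NRF1 motifs. The median age difference in the knockout-labelled group was -0.52 for the 36 genes with a motif and -0.68 for the 33 without, and in Pparafl/fl it was -0.59 and -0.50.

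Many of these genes started close to a neighbour on the opposite strand. A protein-coding gene on the opposite strand started within 1000 bp of 32 of the 78 genes, or 41%, against 10.5% of all 21893 protein-coding genes with a position. Pairs that point apart and pairs that overlap at their starts are counted alike. One such pair joins Mrpl46 with Mrps11, whose starts lie 412 bp apart and which overlap there. Mrps12 starts 172 bp from Sars2, the mitochondrial seryl-tRNA synthetase, and Mrpl36 starts 29 bp from Ndufs6, a complex I subunit. In the knockout-labelled group, 2 of the 32 neighbours were lower at 28 months, Ndufs6 with a log2 difference of -1.62 and Apba3, which starts 26 bp from Mrpl54, with -1.02, against 2.59% of all genes lower there. Of the 32 neighbours 21 had a negative difference, against 46.1% of all genes, and 30 of the 32 are not mitoribosomal genes.

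Per kb of exon, Mrpl12 stood highest with a mean of 48 CPM per kb over 20 libraries. Its protein forms part of the stalk that recruits translation factors and also binds the mitochondrial RNA polymerase. Next came Mrpl10, its stalk partner, at 27.2 CPM per kb, and Mrpl24 at 26.6 CPM per kb. Mrpl57, at 1.51 CPM per kb, Mrpl16, at 2.76 CPM per kb, and Mrps26, at 3.07 CPM per kb, had the lowest means over the 20 libraries. The order differed between groups: Mrpl57 was at 0.173 CPM per kb in young Pparafl/fl but at 3.29 CPM per kb in the aged knockout-labelled group, above Mrpl16 at 2.11 and Mrps26 at 2.67 CPM per kb there. Mrpl10, at 24.9 CPM per kb in the young knockout-labelled group, was below Mrpl24 at 30 CPM per kb. The order also depended on the length used: with the exons of basic protein-coding transcripts alone, Mrpl33 at 88.5 CPM per kb and Mrpl30 at 78.1 CPM per kb came before Mrpl12 at 55.9 CPM per kb. Mrps9 was the steadiest in CPM, between 33.2 and 62.9 CPM in all 20 libraries.

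The first comparison asks how these genes differ between 2 and 28 months. Summed over the 78 genes, the young Pparafl/fl libraries stood at 2060, 2550, 2670, 2380 and 2300 CPM and the aged ones at 2590, 1450, 1470, 1280 and 1670 CPM. In the knockout-labelled group, the young libraries stood at 2060, 1900, 2140, 2690 and 2820 CPM and the aged ones at 1830, 1510, 1360, 1500 and 1510 CPM. All aged knockout-labelled libraries were below all young ones. In Pparafl/fl, 4 aged libraries were below all young ones and aged library 1 lay within the young range. The group means were 2390 ± 235 and 1690 ± 521 CPM (SD, n = 5 each) in Pparafl/fl, and 2320 ± 407 and 1540 ± 173 CPM (SD, n = 5 each) in the knockout-labelled group.

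**Figure D1:**
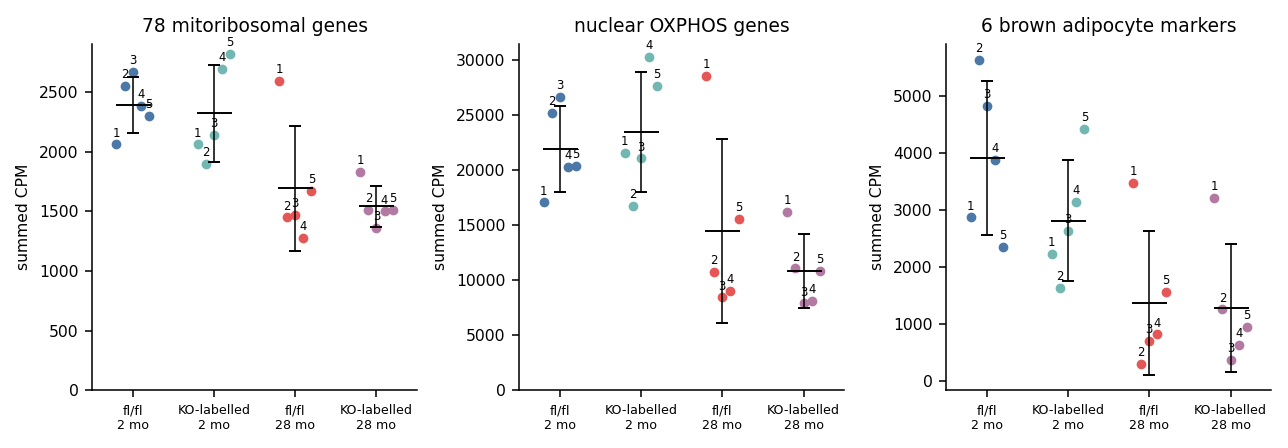
Summed CPM of the 78 mitoribosomal genes, of nuclear oxidative phosphorylation (OXPHOS) genes and of 6 brown adipocyte markers in each library (numbered points), with the mean and SD of each group of 5. Cox8b is counted in both the second and the third panel. Aged Pparafl/fl library 1 stands at 2590 CPM in the first panel, 28600 CPM in the second and 3480 CPM in the third; it lies within the range of the young Pparafl/fl libraries for the mitoribosomal genes and the markers, and above all 5 of them for the OXPHOS genes, where the highest is at 26700 CPM.

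The difference was spread over the set. In Pparafl/fl, 72 of 78 genes had a negative log2 difference of 28 minus 2 months, against 46.3% of all genes tested, and their median was -0.55 against 0.06. Of the 78 genes, 73 were negative in the knockout-labelled group, against 46.1% of all, with a median of -0.61 against 0.06. The comparisons share no library. A negative value in both was found for 70 genes, and across the 78 genes the differences had a Pearson r of 0.63 and a Spearman rho of 0.61, given as a description since genes are not independent replicates. The lower and upper quartiles over the 78 genes were -0.75 and -0.26 in Pparafl/fl. They were -0.88 and -0.36 in the knockout-labelled group.

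**Figure D2:**
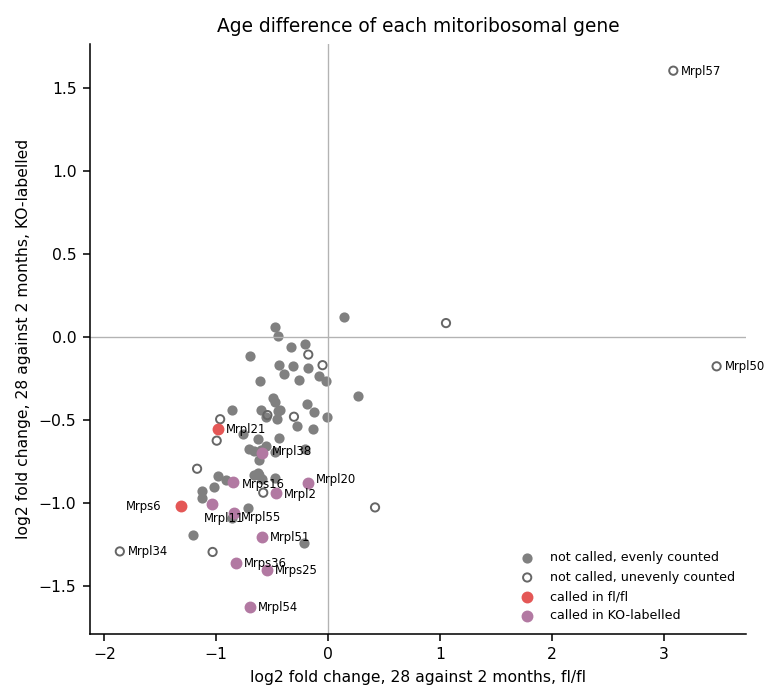
Log2 difference of 28 minus 2 months for each of the 78 genes in Pparafl/fl (x axis) and in the knockout-labelled group (y axis). Points in colour passed the test in 1 of the comparisons, and open points are uncalled genes with uneven counts (within-group SD of log2 CPM above 0.8); 70 of the 78 genes lie at the lower left, and Mrpl50 and Mrpl57 stand apart on the right.

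Few single genes passed the test. With edgeR's quasi-likelihood test and Benjamini-Hochberg adjustment over all genes tested, 2 of 78 fell in Pparafl/fl, against 2.48% of 20989 genes, and 10 of 78 fell in the knockout-labelled group, against 2.59% of 20950 genes. The count of 10 was between 1 and 7 when a library was left out: 1 without young library 4 or 5, and 2 without aged library 2. The share of all genes called in these fits is not given. This range is therefore not read as a result about the mitoribosomal genes. None rose in either, where 2.06% and 1.87% of all genes did. Groups did not overlap, with the aged lower, for 4 of 78 genes in Pparafl/fl, against 5.1% of all, and for 19 of 78 in the knockout-labelled group, against 5.34% of all. None had the aged libraries all higher, where 3.94% and 3.3% of all genes did. DESeq2's Wald test, an alternative, called 10 of 77 genes with a p-value lower and 1 higher in Pparafl/fl, against 4.1% and 6.04% of 32762 genes. It called 27 lower in the knockout-labelled group, against 4.72% of 32426 genes, the 10 called by edgeR among them. These totals hold all genes with a p-value, also any that DESeq2 left without an adjusted p and that could not be called. The shares may therefore be too low to set beside the counts of mitoribosomal genes. At an unadjusted p under 0.05, 26 genes were lower and 2 higher in Pparafl/fl, where 10.4% and 12.4% of all genes were, and 38 were lower in the knockout-labelled group, where 11.2% of all were. In the authors' deposited table, 39 of the 77 genes with a p-value in the knockout-labelled comparison had one under 0.05, all of them lower, against 20.1% of all genes, and 27 of 76 did in Pparafl/fl, of which 25 were lower, against 19.8%.

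The count in Pparafl/fl depended on aged library 1. This library was singled out by the values of these same genes, so the fit without it is a description, not a corrected result. Over the 10 fits that left out a library, the count was between 1 and 29. The share of all genes called is given only for the fit without aged library 1. The other counts are not read as results about these genes. Of the 78 genes, 8 were below every young Pparafl/fl library in aged library 1, and 56, 55, 59 and 47 were in the others. The same count in the knockout-labelled group was 30, 47, 46, 50 and 45 over aged libraries 1 to 5. Without aged library 1, 29 of 78 genes fell with age in Pparafl/fl, against 5.9% of 21592 genes, none rose, against 4.72%, and the median difference was -0.80 against 0.05 for all genes. Of the 29 genes, 19 belong to the large subunit and 9 to the small one. The smallest p among them was that of Mrpl42, a large-subunit protein added in mitochondria, which fell by 2.04 on the log2 scale (SE 0.17, adjusted p = 0.0017). Mrpl39, another such protein, fell by 1.67 (SE 0.20, adjusted p = 0.00419), and Mrpl12 by 1.51 (SE 0.26, adjusted p = 0.0121). Of the genes called there, 5 were also among the 10 of the knockout-labelled group: Mrpl2, Mrpl11, Mrpl38, Mrpl55 and Mrps36. They are 17.2% of the first list and 50% of the second. As 29 of all 78 genes are in the first list, this overlap is not read as agreement between genotypes.

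The large-subunit gene with the smallest p in Pparafl/fl was Mrpl21 (chr19:3282901-3292837, GRCm38), a homologue of a bacterial ribosomal protein. It was at 12.1, 12.4, 14.3, 12.1 and 12 CPM in the young libraries and at 7.59, 5.47, 5.88, 5.73 and 7.19 CPM in the aged ones. The aged libraries were all below the young ones, library 1 included, and the gene fell by 0.98 on the log2 scale (SE 0.17, adjusted p = 0.0129, edgeR). Mrpl21 in the knockout-labelled group was at 6.93 to 15.4 CPM at 2 months and at 3.33 to 9.65 CPM at 28 months, which overlap, with a log2 difference of -0.55 (SE 0.32, adjusted p = 0.335).

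Mrps6 (chr16:92058270-92112227, GRCm38), a small-subunit protein with a bacterial homologue, also fell in Pparafl/fl. The young libraries were at 28.4, 13.3, 49.3, 39.2 and 25.2 CPM and the aged at 10.7, 9.94, 14.6, 16.5 and 10.7 CPM. The groups overlapped through young library 2, and the fall of 1.32 (SE 0.33, adjusted p = 0.0484, edgeR) was called in 1 of the 10 fits that left out a library. Its log2 difference in the knockout-labelled group was -1.02 (SE 0.30, adjusted p = 0.0821). Mrps24, of the small subunit, missed the threshold in Pparafl/fl with -1.13 (SE 0.29, adjusted p = 0.0547) although its groups did not overlap.

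In the knockout-labelled group the smallest p was that of Mrpl51 (chr6:125191801-125196269, GRCm38), a large-subunit protein without a bacterial homologue. The young libraries were at 42, 37.1, 38.5, 55.5 and 44.1 CPM and the aged at 17.9, 19.6, 18.1, 15.5 and 22.4 CPM. The highest aged library was well below the lowest young one, and the gene fell by 1.21 (SE 0.16, adjusted p = 0.00733, edgeR), a call that held in all 10 fits that left out a library. In Pparafl/fl, aged library 1 was at 52.9 CPM and the others were at 14, 28.1, 12.4 and 25.8 CPM, against 31.5 to 46.5 CPM at 2 months, and the log2 difference was -0.59 (SE 0.37, adjusted p = 0.365).

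Mrpl2, the homologue of a bacterial protein near the catalytic centre of the large subunit, was at 24.7, 19.3, 23.2, 27.9 and 28.2 CPM in the young knockout-labelled libraries and at 12.5, 12.3, 10.2, 13.8 and 15 CPM in the aged ones. It fell by 0.94 (SE 0.18, adjusted p = 0.023, edgeR). Mrpl11, a homologue of a bacterial protein at the base of the stalk, was at 30.7, 23, 26.3, 34.9 and 39.3 CPM and at 18.8, 11.8, 15.4, 12.2 and 18 CPM, and fell by 1.01 (SE 0.21, adjusted p = 0.0288). For both genes the groups of the knockout-labelled group did not overlap. In Pparafl/fl, both had aged library 1 far above the other aged libraries, at 33.2 CPM for Mrpl2 and 30 CPM for Mrpl11.

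Mrpl54 (chr10:81264713-81266934, GRCm38), a large-subunit protein of mitochondrial origin, had the largest fall of the called genes. It was at 4.11, 11.4, 5.44, 11.6 and 8.47 CPM in the young knockout-labelled libraries and at 2.36, 2.97, 2.35, 2.88 and 2.60 CPM in the aged ones. The aged libraries lay close together below all young ones, and the fall was 1.63 (SE 0.32, adjusted p = 0.0255, edgeR). In Pparafl/fl the difference was -0.70 (SE 0.39, adjusted p = 0.311).

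The other called large-subunit genes were Mrpl55, which fell by 1.06 (SE 0.20, adjusted p = 0.023, edgeR), Mrpl38, which fell by 0.70 (SE 0.16, adjusted p = 0.0379), and Mrpl20, which fell by 0.88 (SE 0.21, adjusted p = 0.046). Of the small subunit, Mrps16 fell by 0.88 (SE 0.21, adjusted p = 0.0451). Mrps25 fell by 1.40 (SE 0.32, adjusted p = 0.0379), but in Pparafl/fl it stood at 95.8, 14.7, 90.5, 19.5 and 80.8 CPM in young libraries alone, so its level was uneven within a group. For these 5 genes the young and aged knockout-labelled libraries did not overlap.

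Mrps36 carries the family name but its protein is a subunit of the alpha-ketoglutarate dehydrogenase complex, an enzyme of the citric acid cycle. It was at 12.5, 10.8, 18.9, 22.4 and 19.6 CPM in the young knockout-labelled libraries and at 9.27, 6.51, 4.96, 4.84 and 7.03 CPM in the aged ones. The groups did not overlap, and it fell by 1.36 (SE 0.27, adjusted p = 0.0272, edgeR). In Pparafl/fl, aged library 1 was at 31.7 CPM and the other aged libraries at 5.32 to 8.61 CPM. Of the 10 fits that left out a library of the knockout-labelled comparison, the call was lost in 2 for Mrpl2, in 4 for Mrpl55, in 6 each for Mrpl11, Mrpl54 and Mrps36, in 8 for Mrpl38 and in 9 for Mrps25, while each kept its sign. Mrpl20 and Mrps16 were not followed gene by gene in these fits.

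**Figure D3:**
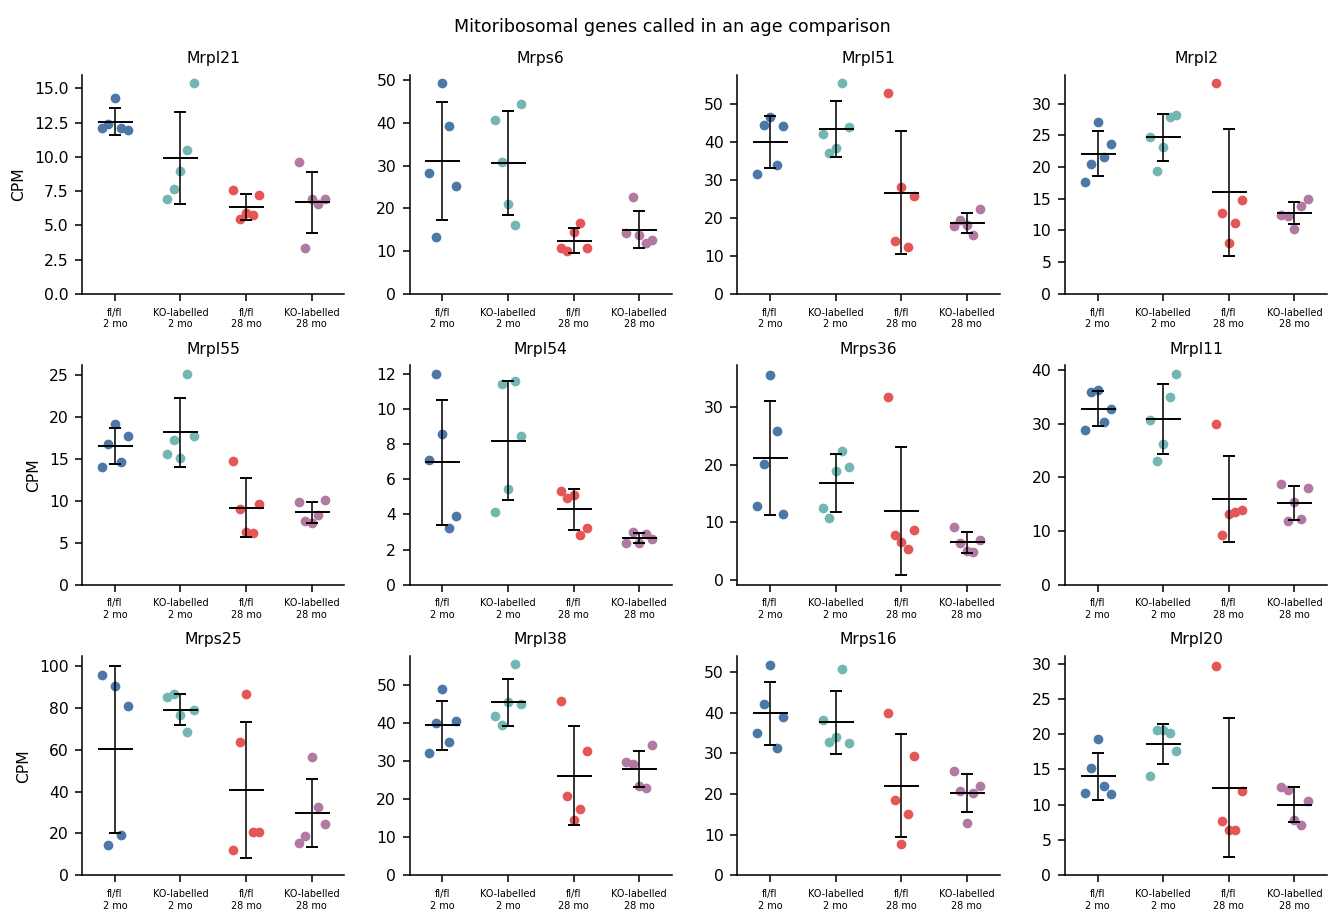
CPM of the 12 genes that passed the test in an age comparison, in each library, with the mean and SD of each group of 5. Mrpl21 and Mrps6 were called in Pparafl/fl and the others in the knockout-labelled group; aged Pparafl/fl library 1 (leftmost point of its group) is far above the other aged libraries for Mrpl2, Mrps36, Mrpl11 and Mrpl20.

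Both subunits and both evolutionary classes had medians on the same side. The 51 large-subunit genes had median log2 differences of -0.48 in Pparafl/fl and -0.55 in the knockout-labelled group, and the 26 small-subunit genes of -0.58 and -0.62. The 48 genes with a bacterial homologue had medians of -0.57 and -0.68, and the 29 added in mitochondria of -0.54 and -0.53. Subunits of the mitochondrial ribosome whose names fall outside the rule were alike in sign: Dap3, Gadd45gip1, Ptcd3, Aurkaip1 and Chchd1 had negative values in both comparisons, with medians of -0.63 and -0.67, and none of the 5 was called. The differences were not uniform. Mrps27, which binds RNA in the small subunit, differed by -0.02 (SE 0.29, adjusted p = 0.976, edgeR) in Pparafl/fl, and Mrps30, which sits in the large subunit despite its name, by -0.04 (SE 0.26, adjusted p = 0.947) in the knockout-labelled group. Mrps17, of the small subunit, was 0.12 higher (SE 0.25, adjusted p = 0.82) in the aged knockout-labelled libraries. Mrpl58, a peptidyl-tRNA hydrolase that frees stalled ribosomes, differed by -0.40 (SE 0.21, adjusted p = 0.291) and -0.22 (SE 0.21, adjusted p = 0.569).

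Counts of genes with few exons were uneven between libraries of the same group. The within-group SD of log2 CPM had a median of 1.77 over the 4 genes with 2 exons, 0.56 over the 28 with 3 to 4, 0.42 over the 22 with 5 to 6, 0.38 over the 16 with 7 to 8 and 0.38 over the 8 with 9 or more. It was above 0.8 for 15 genes, all with at most 4 exons. Mrpl34, of the large subunit, ranged from 0 to 61.1 CPM. Mrpl50, of the large subunit, was between 0.849 and 5.25 CPM in the young Pparafl/fl libraries and at 90.3, 32.3, 42.2, 2.45 and 2.71 CPM in the aged ones, which overlap, so that the largest positive difference of the set, 3.47 (SE 0.97, adjusted p = 0.0712, edgeR), came from 3 libraries. Mrpl57 had the next, 3.09 (SE 1.35, adjusted p = 0.207), and was at 10.1 and 10.8 CPM in 2 aged libraries and below 1 CPM in the others of both groups.

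**Figure D4:**
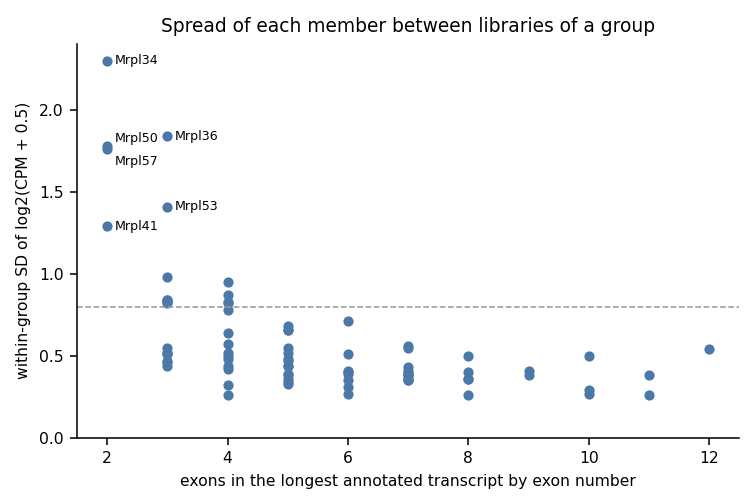
Within-group SD of log2(CPM + 0.5) of each of the 78 genes (y axis) against its number of exons (x axis); the dashed line is at 0.8. The 15 genes above the line have at most 4 exons.

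For Mrpl53 an overlapping gene moved with the gaps. Gm42688, a protein-coding gene model of 12 exons that overlaps it (chr6:83101617-83109939, GRCm38), was at 19.9 CPM in young knockout-labelled library 3, 2.18 CPM in aged Pparafl/fl library 3, and 16.8 and 15.4 CPM in aged knockout-labelled libraries 1 and 5. In these 4 libraries Mrpl53 was at 1.30, 1.64, 1.26 and 0.977 CPM, and in the other 16, where Gm42688 was at 0, it was at 6.93 to 33.1 CPM. The part of overlapping gene models in the uneven counts of the other genes was not tested. Leaving out the 15 unevenly counted genes gave medians of -0.56 in Pparafl/fl and -0.61 in the knockout-labelled group, with 2 and 9 of 63 genes called.

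Of the ribosomal RNAs that these proteins are assembled with, mt-Rnr1, of the small subunit, was at 0 in all 20 libraries and could not be compared. The large-subunit RNA, mt-Rnr2, was at 3700, 4400, 4700, 3280 and 1960 CPM in the young Pparafl/fl libraries and at 7840, 5460, 6510, 7420 and 4110 CPM in the young knockout-labelled ones. These groups overlapped, and the log2 difference of knockout-labelled minus Pparafl/fl was 0.81 (SE 0.25, adjusted p = 0.346, edgeR). In the aged libraries mt-Rnr2 was at 4520, 2030, 0, 2500 and 2540 CPM in Pparafl/fl and at 2660, 3530, 7360, 2300 and 3500 CPM in the knockout-labelled group. Its age difference was -0.69 (SE 0.32, adjusted p = 0.235) in the knockout-labelled group and -0.65 (SE 1.32, adjusted p = 0.809) in Pparafl/fl, whose aged group includes library 3 at 0. At 28 months the genotypes differed by 0.77 (SE 1.33, adjusted p = 1), and the interaction was -0.02 (SE 1.44, adjusted p = 1). Of the 13 mitochondrial mRNAs that the ribosome translates, at most 2 passed the filter in any pair of groups. Their summed level was 76000 CPM in aged Pparafl/fl library 3 and at most 4360 CPM in every other library. In that library mitochondrial genes took 7.55% of counts, against 0.19% to 0.91% in the others.

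Other nuclear genes for mitochondrial proteins were compared in the same fits. The 81 nuclear subunits of the respiratory chain and ATP synthase had a median of -1.16 in the knockout-labelled group. There 54 fell, against 2.59% of all genes tested, among them Ndufb3 by 3.07 (SE 0.34, adjusted p = 0.00405, edgeR) and Ndufa4 by 1.39 (SE 0.17, adjusted p = 0.00442). In Pparafl/fl their median was -0.68 and none was called, against 2.48% of all genes lower. The values with the smallest p were those of Atp5g2, -0.80 (SE 0.26, adjusted p = 0.101), and Ndufb3, -1.75 (SE 0.56, adjusted p = 0.101). The 80 cytosolic ribosomal protein genes had medians of -0.32 in Pparafl/fl and -0.11 in the knockout-labelled group. Of these, 1 and 0 were called lower, against 2.48% and 2.59% of all genes. Of mitochondrial import genes, Tomm7 fell by 2.61 (SE 0.27, adjusted p = 0.00388) and Timm17a by 1.15 (SE 0.22, adjusted p = 0.0232) in the knockout-labelled group. There 3 of 17 fell, against 2.59% of all genes.

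Few other genes of mitochondrial translation passed the test. The 13 translation factors had medians of -0.22 in Pparafl/fl and -0.29 in the knockout-labelled group with none called. The lowest p was that of Tufm, the elongation factor, in the knockout-labelled group, with -0.90 (SE 0.27, adjusted p = 0.0783, edgeR). The 25 assembly factors tested had medians of -0.24 and -0.25 with none called, and Gtpbp10, a GTPase of large-subunit assembly, differed by -0.47 (SE 0.18, adjusted p = 0.156) and -0.55 (SE 0.17, adjusted p = 0.0981). Cars2, the cysteinyl-tRNA synthetase, fell by 1.36 (SE 0.21, adjusted p = 0.00775) in Pparafl/fl, the only one of 17 synthetases called, where 2.48% of all genes fell. Slirp, a stabilizer of mitochondrial mRNAs, fell by 1.21 (SE 0.22, adjusted p = 0.0204) in the knockout-labelled group, where 2.59% of all genes fell. It was the only one called of 13 genes of mitochondrial transcription and mRNA binding. These single calls are not read as results about their lists. Of 12 regulators none was called in either age comparison. In Pparafl/fl, Nrf1 differed by 0.49 (SE 0.13, adjusted p = 0.066, edgeR), with all aged libraries higher, as for 3.94% of all genes. Pprc1, with -0.38 (SE 0.12, adjusted p = 0.0935), and Ppard, with -0.41 (SE 0.13, adjusted p = 0.111), had all aged libraries lower, as for 5.1% of all genes. The groups overlapped for Ppara, with -1.02 (SE 0.33, adjusted p = 0.106). They also did for Ppargc1a, which encodes a coactivator of mitochondrial genes, with -1.41 (SE 0.57, adjusted p = 0.175).

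**Figure D5:**
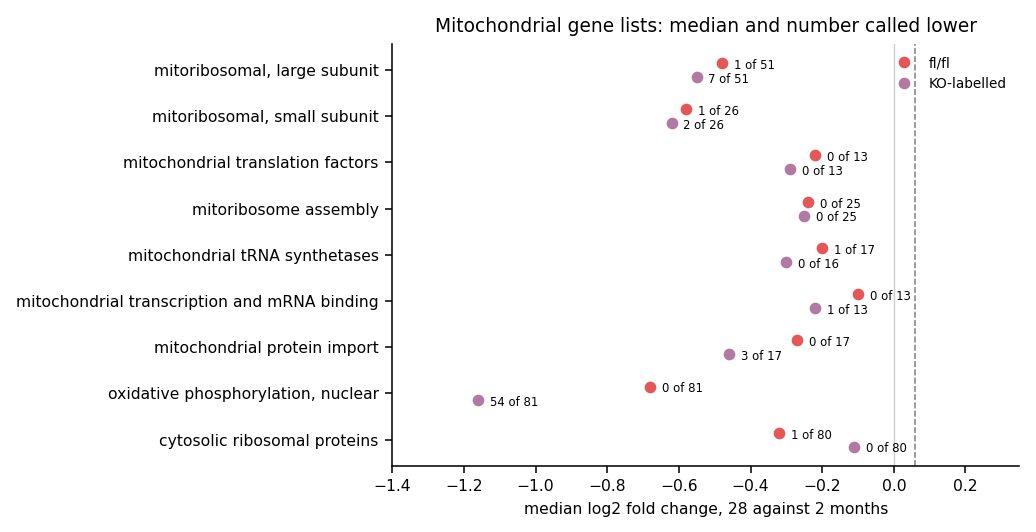
Median log2 difference of 28 minus 2 months of each gene list in Pparafl/fl and in the knockout-labelled group. The number beside a point is how many of the genes tested fell, where 2.48% and 2.59% of all genes fell. The dashed line is the median of all genes tested, 0.06 in both comparisons. Nuclear oxidative phosphorylation genes had the lowest medians, -0.68 and -1.16, followed by the mitoribosomal subunits.

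Markers of brown adipocytes, cells rich in mitochondria that surround the aorta, were set beside the summed level of the mitoribosomal genes. The 6 markers, Ucp1, Cidea, Dio2, Prdm16, Elovl3 and Cox8b, summed to 2870, 5630, 4820, 3880 and 2360 CPM in young Pparafl/fl libraries 1 to 5 and to 3480, 311, 711, 825 and 1560 CPM in the aged ones. In the knockout-labelled group they summed to 2230, 1630, 2640, 3140 and 4420 CPM at 2 months and to 3210, 1260, 380, 638 and 948 CPM at 28 months. Aged library 1 was the highest of its group in both genotypes, for the markers as for the mitoribosomal genes, and none of the 6 markers was at 0 in all libraries. Cox8b is also counted in the list of nuclear oxidative phosphorylation genes. Of the 6 markers, 2 fell in Pparafl/fl and 3 in the knockout-labelled group, against 2.48% and 2.59% of all genes. With their mean log2 CPM as a covariate, the median of the mitoribosomal genes was -0.26 in Pparafl/fl and -0.38 in the knockout-labelled group, with 0 and 1 gene called. With the 10 adipocyte markers as a covariate the medians were -0.17 and -0.48, with none called in either. The markers moved with age, so their part and that of age cannot be told apart within these fits. The share of all genes called in these fits is not given, so the counts are not read as a result about the mitoribosomal genes.

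The next comparison asks how the genes differ between genotypes at one age; these comparisons share libraries with those above. At 2 months none of the 78 genes was called by edgeR, against 0.00485% of 20598 genes, and at 28 months none was, against 0% of 21468 genes. At an unadjusted p under 0.05 there were 2 at 2 months, where 10.1% of all genes were, and 1 at 28 months, where 3.21% were. DESeq2's Wald test called none of them either. The median log2 difference of knockout-labelled minus Pparafl/fl was 0 at 2 months, with 40 of 78 negative against 48.6% of all genes, and -0.10 at 28 months, with 52 of 78 negative against 48.5%. The sign at 28 months depended on 1 library: without aged Pparafl/fl library 1 the median was 0.10 with 30 of 78 negative. With skeletal muscle markers as a covariate it was -0.38 with 64 negative, and with adipocyte markers 0.01 with 39 negative. No gene had groups that did not overlap at either age, where 1.22% of all genes were apart and lower and 1.38% apart and higher at 2 months, and 0.345% and 0.238% at 28 months. The smallest p at 2 months was that of Mrps22, a small-subunit protein, with -0.40 (SE 0.16, adjusted p = 0.449, edgeR), followed by Mrpl43, with -1.16 (SE 0.50, adjusted p = 0.484), and Mrpl20, with 0.42 (SE 0.19, adjusted p = 0.496). At 28 months it was that of Mrpl54, with -0.70 (SE 0.29, adjusted p = 1), followed by Mrpl1, with -0.44 (SE 0.22, adjusted p = 1), and Mrps23, with -0.41 (SE 0.22, adjusted p = 1). Mrpl54 was at 5.33, 4.92, 5.12, 2.84 and 3.21 CPM in aged Pparafl/fl and, as given above, at 2.35 to 2.97 CPM in the aged knockout-labelled group, and these groups overlap.

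The age differences of the genotypes were also compared directly. None of the 78 genes was called in the interaction of genotype and age over all 20 libraries, where 0% of 23624 genes were, by edgeR or by DESeq2's Wald test. At an unadjusted p under 0.05 there was 1, Mrpl50, where 6.06% of all genes were. The median interaction, the age difference in the knockout-labelled minus that in Pparafl/fl, was -0.02, and 44 of 78 were negative, against 49.7% of all genes. Without aged Pparafl/fl library 1 it was 0.20 with 23 of 78 negative, and with skeletal muscle markers as a covariate -0.22 with 58 negative. For Mrpl51 it was -0.60 (SE 0.41, adjusted p = 0.917, edgeR), for Mrpl54 -0.92 (SE 0.50, adjusted p = 0.866) and for Mrpl21 0.44 (SE 0.35, adjusted p = 0.948). The 10 genes called in the knockout-labelled group and the 2 called in Pparafl/fl are thus not shown to differ in their age differences between genotypes.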

How the data were processed

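RNA of 20 whole aortas was sequenced after a KAPA Stranded kit, per the labels' protocols. The authors deposited 1 table per comparison with gene counts of the libraries, a p-value and a fold score. The last 2 are the authors' values, and only the p-values and the direction of the fold scores are used here. The submitters' processing notes name HISAT, featureCounts 1.5.0-p3, DESeq 1.8.3 and GRCm38; the strand setting is not given in the sources used here. Counts of a library were the same in every table that held it. Gene names were matched to GENCODE M21 for exons and positions (55240 of 55421 IDs, 99.7%, and all 78 members), and 5 pseudogene rows were left out.

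Counts were tested with edgeR 4.0.16 in R 4.3.3: TMM, filterByExpr, and the quasi-likelihood test in a fit of the 10 libraries of each comparison, or of all 20 for the interaction. P-values were Benjamini-Hochberg adjusted over all genes tested, with a threshold of 0.05. Each SE is the log2 difference divided by the square root of F. DESeq2 1.42.0 was an alternative, as were other scalings, no filter, marker covariates, 1 fit of 20 libraries and leaving out each library. The scripts were checked on simulated data. Replicate numbers follow accession order and pair nothing. RefSeq promoters (GRCm38.p6) run from 250 bases before to 50 after the start.

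The members and gene lists were chosen with earlier results of these data known. Genes were named if they were among the 8 called members with the smallest p in a comparison (or the 3 smallest p where fewer than 3 were called), the 3 largest differences either way with a mean of at least 50 counts, the 3 highest or lowest levels per kb, 18 members of known role, or the 2 smallest p of a pathway list. Mrpl20, Mrps16, Mrps9, Mrpl53, Mrpl39, Mrpl33, Mrpl30, Ppard and the neighbours with their partners were named after their values were seen. The limit of 0.8 for uneven counts was also set then.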

Additional observations from a re-analysis of the deposited data

Results flagged for a closer look

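For the genes called in an age comparison, Ppara and the summed mitoribosomal level, 56 groups of 5 libraries were searched for a library far from the other 4. The measures come from the same 20 libraries, and the genes were chosen by their calls in them, so no chance rate is set beside the result. Of the 56 groups, 7 held such a library. Aged Pparafl/fl library 1 was the high library in 4 of them, at 33.2 CPM for Mrpl2 (nearest other library 14.8 CPM), 31.7 CPM for Mrps36 (8.61 CPM), 30 CPM for Mrpl11 (14 CPM) and 29.7 CPM for Mrpl20 (11.9 CPM). The same library had the highest brown adipocyte marker sum of its group, 3480 CPM, and the part of that in these values was not tested. Mrpl21 was at 14.3 CPM in young Pparafl/fl library 3, above the next at 12.4 CPM. Mrps6 was at 22.7 CPM in aged knockout-labelled library 2, above the next at 14.3 CPM. Mrpl55 was at 25.2 CPM in young knockout-labelled library 4, above the next at 17.7 CPM.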

How the results depend on the processing

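No paired analysis was possible because the replicate numbers follow accession order and the labels pair no libraries. In Pparafl/fl the count of genes called lower with age, 2, was 1 with DESeq2's size factors, 1 without the filter, 1 with total counts in place of TMM, 0 with adipocyte, skeletal muscle or brown adipocyte markers as a covariate, 5 in 1 fit of 20 libraries and 11 by DESeq2's Wald test (10 of them lower, against 4.1% of all genes), and between 1 and 29 when a library was left out. In the knockout-labelled group the count of 10 was 6 without the filter, 6 with total counts, 0 with adipocyte markers, 1 with skeletal muscle markers, 1 with brown adipocyte markers, 5 in 1 fit of 20 libraries and 27 by DESeq2's Wald test (against 4.72% of all genes), and between 1 and 7 when a library was left out: 1 without young library 4 or 5, and 2 without aged library 2. The cause of these changes was not tested. Among these runs, the share of all genes called is given only for DESeq2's Wald test and for the fit without aged Pparafl/fl library 1. For DESeq2 it is over all genes with a p-value, also any without an adjusted p, and may be too low. The other counts are therefore not read as results about these genes. The covariate of brown adipocyte markers and the omission of unevenly counted genes were chosen after seeing the data. The counts for genotype and interaction stayed at 0 in each alternative run.

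The median of the 78 genes in Pparafl/fl moved from -0.55 to -0.17 with adipocyte and to -0.26 with brown adipocyte markers, and that of genotype at 28 months from -0.10 to -0.38 with skeletal muscle markers and to 0.10 without aged Pparafl/fl library 1. With total counts the median of all genes moved from 0.06 to 0.21 in Pparafl/fl and 0.25 in the knockout-labelled group, and that of the 78 genes was -0.43 and -0.41. Among the genes named for a comparison by their p or the size of their difference, signs turned only for unevenly counted genes and Mrps17. Genes named for their role alone, such as Mrps27 and Mrps30 with values near 0, were not followed in these runs. Mrpl57 turned to -1.03 in Pparafl/fl with adipocyte markers. Mrpl34 turned to 1.86 and 0.32 there with skeletal muscle and brown adipocyte markers, to 1.02 and 0.47 between genotypes at 2 months, and to -4.20 and -3.19 in the interaction, where Mrpl57 was 0.41 with skeletal muscle markers. Leaving out a library gave ranges across 0 for Mrps17 (-0.00 to 0.30) and Mrpl41 (-0.21 to 0.33) with age in the knockout-labelled group, Mrpl57 (-0.73 to 3.01) and Mrpl50 (-0.40 to 2.58) between genotypes at 2 months, and Mrpl57 (-1.82 to 1.85) and Mrpl34 (-5.56 to 2.84) in the interaction. The biological coefficient of variation, between 0.526 and 0.728, limits what 5 libraries a group can show.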
